A study of Mus musculus with 12 samples.

Results

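The hair bundle of an inner ear sensory cell is held together by protein links. Transcripts of 9 genes that encode these links and their anchors were followed here in ribosome-bound RNA enriched for newborn mouse hair cells. The genes were chosen by symbol, with earlier results of these data known. All 9 were found among the 28342 genes listed for the hearing organ, the cochlea, and the 24726 listed for the balance organ, the vestibule. The study set Gfi1 mutants (Gfi1Cre/Cre;RiboTagHA/HA) against heterozygous controls (Gfi1Cre/+;RiboTagHA/HA), with 3 libraries per genotype in each organ and 12 in all, taken at postnatal day 0 to 1. RiboTag is an allele of a ribosomal protein that gains an HA tag in cells with Cre, so an HA antibody pulls down the RNA that those cells were translating. Both genotypes carried RiboTag on both copies and Cre at the Gfi1 locus. The controls therefore had a single unmodified copy of Gfi1 and are not wild type, and mutants had more Cre alleles than controls. Cochlear and vestibular libraries were made with different kits, so organ and kit cannot be told apart and no level is compared between organs.

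Stereocilia, the actin-filled rods of the bundle, are tied to each other by fine filaments. The tip link, made of cadherin 23 above and protocadherin 15 below, pulls open the mechanotransduction channels when the bundle is deflected. In growing bundles the same cadherins also form transient side links and the links to the kinocilium, and a further set, the ankle links, ties the stereocilia near their bases. Proteins with PDZ and other binding domains, together with a myosin motor, hold these links in place. Most of these genes are mutated in Usher syndrome, the joint loss of hearing and sight. Usher type 1 genes serve the tip link and type 2 genes the ankle link.

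The targeted gene was checked first. The tag marks whatever cells use the Gfi1 locus, and the labels call the cells enriched, so RNA of other cells was also present: macrophage markers summed to 1450 to 1562 CPM (reads of the gene per 1000000 reads of the library) in mutant cochleae, against 1124 to 1418 CPM in heterozygous cochleae. Gfi1 averaged 69.5 ± 5.43 CPM in mutant cochleae and 133 ± 30.1 CPM in heterozygous cochleae, and 214 ± 19.8 CPM in mutant vestibules and 489 ± 42.2 CPM in heterozygous vestibules (SD, n = 3 each). It fell in both organs, with log2 fold changes of -0.90 and -1.19 (limma, Benjamini-Hochberg adjusted p = 0.00355 and 0.00234). Cochlear libraries held 7531518 to 9363796 reads each, and vestibular libraries 18951026 to 29370267. Some libraries stood apart from the rest. The cochlear replicate 3 libraries held 27152 CPM (mutant) and 33207 CPM (heterozygote) of mitochondrially encoded transcripts, against 58562 to 78544 CPM in the other 4 cochlear libraries. The vestibular replicate 1 libraries had 0.729% (mutant) and 0.684% (heterozygote) of their reads outside the listed genes, against 0.119% to 0.127% in the other 4. Results that rest on these libraries are given with and without them.

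Log2 fold changes below were computed on CPM + 1 as mutant minus heterozygote and carry the standard error (SE) of limma, and a gene is said to rise or fall where its adjusted p was under 0.05 over all genes tested in the organ. The promoters of the 5 genes that fell in the cochlea and of Clrn1, which rose in the vestibule, are shown because these genes moved together or apart from one another. Each runs from 250 bases before to 50 bases after the start of the gene in RefSeq (GRCm38.p6), 5′ to 3′ on the strand of the gene. Capitals mark CAGCTG, a form of the E-box CANNTG bound by bHLH factors such as ATOH1, searched on both strands. The windows are chr10:60696441-60696740 (minus strand) for Cdh23, chr13:81633095-81633394 (minus) for Adgrv1, chr19:45045723-45046022 (minus) for Pdzd7, chr10:73821617-73821916 (plus) for Pcdh15, chr7:98119444-98119743 (minus) for Myo7a and chr3:58885163-58885462 (minus) for Clrn1. The Pcdh15 window lies inside the GENCODE gene, and Myo7a has a second start in the table that is not shown.
Cdh23: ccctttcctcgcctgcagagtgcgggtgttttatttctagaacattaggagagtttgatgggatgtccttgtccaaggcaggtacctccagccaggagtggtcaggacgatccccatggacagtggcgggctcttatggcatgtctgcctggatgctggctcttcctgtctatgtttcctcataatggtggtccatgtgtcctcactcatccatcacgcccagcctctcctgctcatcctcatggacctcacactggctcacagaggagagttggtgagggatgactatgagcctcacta
Adgrv1: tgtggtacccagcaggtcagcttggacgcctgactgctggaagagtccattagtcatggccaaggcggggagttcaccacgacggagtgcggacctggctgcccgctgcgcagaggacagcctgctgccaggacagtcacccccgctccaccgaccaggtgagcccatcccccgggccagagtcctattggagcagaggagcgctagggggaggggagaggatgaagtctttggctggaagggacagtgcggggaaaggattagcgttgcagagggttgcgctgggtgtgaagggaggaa
Pdzd7: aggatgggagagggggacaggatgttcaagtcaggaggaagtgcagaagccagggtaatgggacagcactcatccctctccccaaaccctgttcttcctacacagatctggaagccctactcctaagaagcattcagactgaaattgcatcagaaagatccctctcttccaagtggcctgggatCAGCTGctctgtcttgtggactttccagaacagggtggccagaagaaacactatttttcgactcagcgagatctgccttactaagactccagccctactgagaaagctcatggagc
Pcdh15: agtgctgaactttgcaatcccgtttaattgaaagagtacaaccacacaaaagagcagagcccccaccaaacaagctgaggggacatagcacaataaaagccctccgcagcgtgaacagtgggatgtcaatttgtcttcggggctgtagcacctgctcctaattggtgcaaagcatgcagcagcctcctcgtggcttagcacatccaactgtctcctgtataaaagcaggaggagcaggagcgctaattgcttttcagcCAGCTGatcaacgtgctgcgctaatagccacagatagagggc
Myo7a: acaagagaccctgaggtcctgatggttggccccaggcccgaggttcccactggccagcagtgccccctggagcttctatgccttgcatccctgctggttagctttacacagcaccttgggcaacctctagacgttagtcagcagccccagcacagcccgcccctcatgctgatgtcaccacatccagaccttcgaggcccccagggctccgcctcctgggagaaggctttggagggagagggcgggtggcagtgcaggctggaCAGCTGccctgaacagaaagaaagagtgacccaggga
Clrn1: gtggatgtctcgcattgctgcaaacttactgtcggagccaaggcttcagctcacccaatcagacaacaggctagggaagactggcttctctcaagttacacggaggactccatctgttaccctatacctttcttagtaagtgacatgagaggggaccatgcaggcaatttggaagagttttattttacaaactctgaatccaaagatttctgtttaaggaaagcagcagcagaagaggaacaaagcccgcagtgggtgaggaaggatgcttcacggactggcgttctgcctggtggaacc
The motif CAGCTG was found in the windows of Pdzd7, Pcdh15 and Myo7a and not in those of Cdh23, Adgrv1 and Clrn1, nor in those of Ush1c and Whrn. It occurred in 16.3% of 32851 RefSeq promoters of this length, and CANNTG, of which it is a form, in 72.3%. AATCAC, the core AATC of the sequence that GFI1 binds with its flank AC, occurred in 10.4% of all promoters. It was in none of the 8 members with a window, on either strand. The core AATC alone was not counted, and it does occur, as in the windows of Clrn1 and Pcdh15. These matches are letters in a window only. Ush1g had no entry in the table.

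In the cochlea 5 of the 9 genes fell in mutants: both tip link cadherins, the tip link motor Myo7a, and the ankle link genes Adgrv1 and Pdzd7. Cdh23 fell most, to 28.2% of its heterozygous mean, and Adgrv1 to 36.8%. The other 4 genes, Ush1c, Ush1g, Whrn and Clrn1, did not pass the test. Among all 17985 genes tested in the cochlea, 2.52% fell and 1.90% rose. As the 9 genes were chosen with earlier results of these data known, these shares stand beside them as a description only. No member rose by limma, none had a positive change at an unadjusted p under 0.05, and edgeR and DESeq2 on the recovered reads also called 0 rises. The median log2 fold change was -0.71 over the 9 genes and 0.05 over all genes tested. With the replicate number as a block, the same 5 genes fell and none rose, where 4.31% of all genes fell and 4.21% rose. Clrn1 alone then had a positive change at an unadjusted p under 0.05. Of all genes, 7.77% had every mutant library below every heterozygous one, as these 5 did, and 9.74% had every one above.

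**Figure D1:**
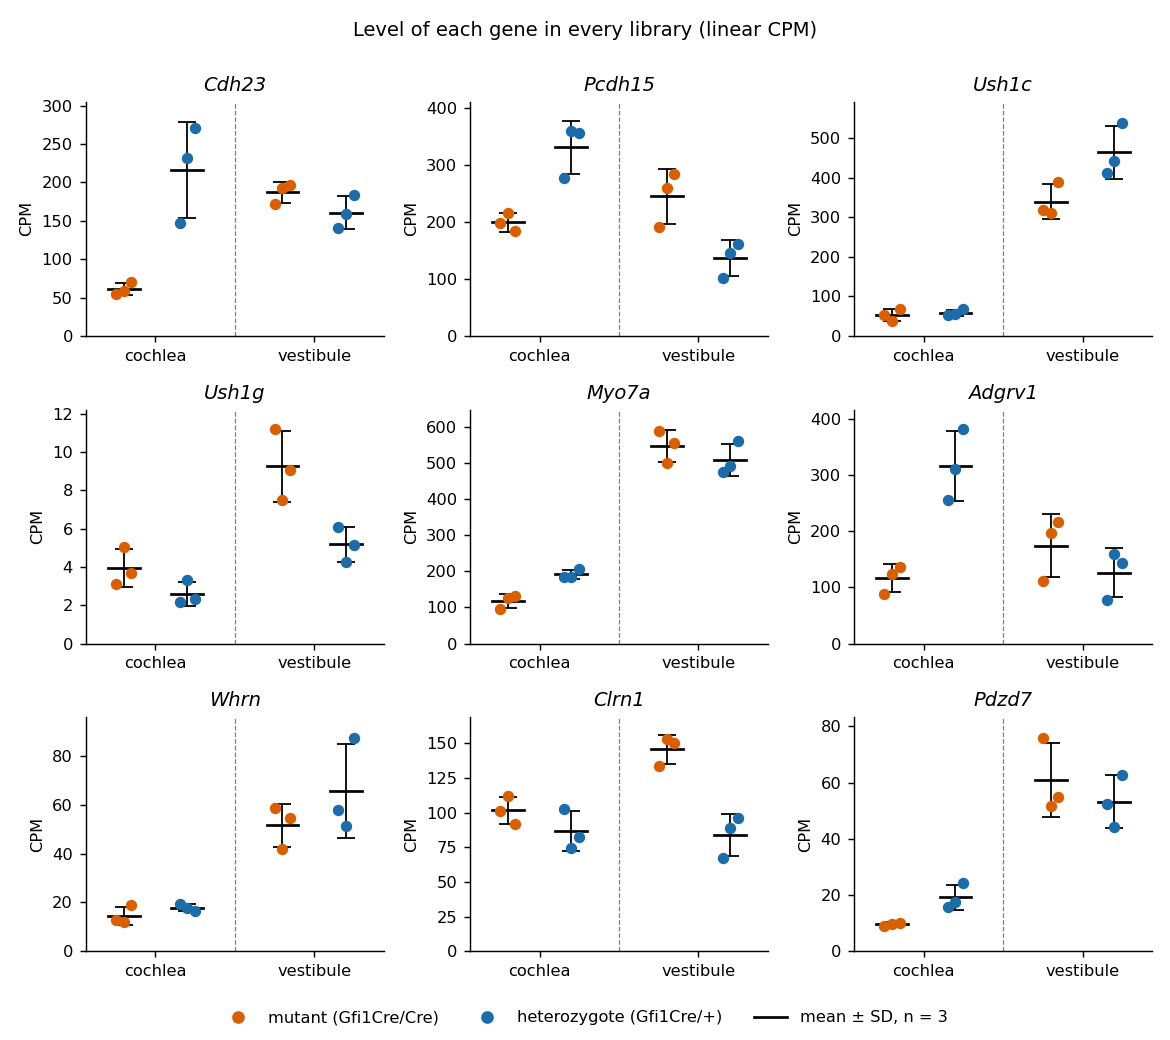
CPM of the 9 genes in each of the 12 libraries, with mutants left of heterozygotes within each organ, points for libraries, and a line and bars for the mean and SD (n = 3). The 5 genes that fell in the cochlea have all 3 mutant libraries below all 3 heterozygous libraries there.

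Cdh23 (chromosome 10, 60302748 to 60696490 on GRCm38, minus strand) encodes cadherin 23, the upper part of the tip link. It had 54.5, 58.5 and 70.3 CPM in mutant cochleae, against 148, 231 and 270.4 CPM in heterozygous cochleae. The highest mutant library was below the lowest heterozygous one by more than the whole mutant range. Its mean was 61.1 ± 8.23 CPM in mutants and 217 ± 62.7 CPM in heterozygotes (SD, n = 3 each), a log2 fold change of -1.77 (SE 0.19, adjusted p = 8.56e-05 by limma).

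Pcdh15 (chromosome 10, 73099342 to 74649737, plus strand) encodes protocadherin 15, the lower part of the tip link. It had 197, 216 and 183 CPM in mutant cochleae, against 277, 359 and 355 CPM in heterozygous cochleae. The groups did not overlap, and the mutant mean was 60.2% of the heterozygous one, beside 28.2% for its partner. Its log2 fold change was -0.72 (SE 0.13, adjusted p = 0.00558 by limma).

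Within each cochlear library the log2 ratio of Cdh23 to Pcdh15 reads was -1.85, -1.89 and -1.38 in mutants, against -0.91, -0.63 and -0.39 in heterozygotes. The ratio was thus lower in all 3 mutant libraries, by a mean of 1.06 on the log2 scale. A ratio within a library does not depend on how the library was scaled. How often the ratio of 2 genes parts by genotype over all genes was not computed, here or for the pairs below. Both genes lie on chromosome 10, and neither shares exon bases with another annotated gene.

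Of the genes that anchor the tip link, Myo7a alone passed the test in the cochlea. Myo7a (chromosome 7, 98051060 to 98119524, minus strand) encodes myosin VIIA, the motor found at the upper end of the tip link. It had 96.0, 126 and 131 CPM in mutant cochleae, against 185, 185 and 206 CPM in heterozygous cochleae, with no overlap. It fell by 0.71 on the log2 scale (SE 0.14, adjusted p = 0.00773 by limma).

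Ush1c (chromosome 7, 46195350 to 46238503, minus strand) encodes harmonin, the scaffold that binds the tail of cadherin 23. It had 51.9, 37.0 and 68.9 CPM in mutant cochleae, against 52.1, 54.6 and 67.0 CPM in heterozygous cochleae. The groups overlapped, with a log2 fold change of -0.17 (95% interval -0.60 to 0.25, adjusted p = 0.870 by limma). The sign turned to 0.05 without mutant replicate 2. Some of its exon bases, 3.12%, are also covered by a predicted gene on the other strand.

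Ush1g (chromosome 11, 115315192 to 115322041, minus strand) encodes SANS, a scaffold that joins harmonin to myosin VIIA. It was the lowest of the 9 genes, also per kilobase of exon, with 3.12, 5.03 and 3.71 CPM in mutant cochleae, against 2.16, 3.32 and 2.35 CPM in heterozygous cochleae. These values rest on 25 to 39 reads in mutant libraries and 17 to 25 in heterozygous ones. The groups overlapped, and the log2 fold change was 0.45 (95% interval -0.11 to 1.02, adjusted p = 0.586 by limma).

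Of the 3 ankle link genes, Adgrv1 and Pdzd7 fell and Whrn did not pass the test. Adgrv1 (chromosome 13, 81095068 to 81633154, minus strand) encodes the very large adhesion receptor of the ankle link. It had 88.6, 123 and 137 CPM in mutant cochleae, against 256, 311 and 381 CPM in heterozygous cochleae. The groups were far apart, with means of 116 ± 24.8 CPM in mutants and 316 ± 63.0 CPM in heterozygotes (SD, n = 3 each). The log2 fold change was -1.44 (SE 0.18, adjusted p = 0.00022 by limma).

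Pdzd7 (chromosome 19, 45026906 to 45045717, minus strand) encodes a PDZ scaffold of the ankle link. It had 8.998, 9.81 and 10.2 CPM in mutant cochleae, against 15.9, 17.5 and 24.1 CPM in heterozygous cochleae, and the groups did not overlap. Its log2 fold change was -0.90 (SE 0.21, adjusted p = 0.0224 by limma). This call was lost without heterozygous replicate 2 (adjusted p = 0.0572), heterozygous replicate 3 (0.0914), mutant replicate 1 (0.0977) or mutant replicate 2 (0.0737), all by limma. Without replicate 3 of both genotypes its change was -0.77 with an adjusted p of 0.113 by limma. The exon bases it shares with Lzts2 on the other strand were 5.08%.

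Whrn (chromosome 4, 63414910 to 63495991, minus strand) encodes whirlin, a PDZ scaffold found both at the ankle link and at the tips of stereocilia. It had 12.9, 12.1 and 18.9 CPM in mutant cochleae, against 19.6, 17.7 and 16.4 CPM in heterozygous cochleae. One mutant library lay within the heterozygous range, and the log2 fold change was -0.30 (95% interval -0.74 to 0.15, adjusted p = 0.687 by limma).

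Clrn1 (chromosome 3, 58844028 to 58885340, minus strand) encodes clarin 1, a membrane protein mutated in Usher type 3. It had 101, 112 and 91.8 CPM in mutant cochleae, against 103, 74.5 and 82.8 CPM in heterozygous cochleae. The groups overlapped, with a log2 fold change of 0.24 (95% interval -0.07 to 0.55, adjusted p = 0.616 by limma).

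The sum of general hair cell markers was also lower in mutant cochleae, though the markers did not all move alike. Their part in the falls of the members was not tested. A list of 7 markers outside the bundle links (Myo6, Pou4f3, Lhx3, Barhl1, Atoh1, Rbm24 and Otof) summed to 2845 to 3326 CPM in mutant cochleae, against 3906 to 4685 CPM in heterozygous cochleae. Of the 7, Otof and Rbm24 fell, none rose and none was at 0, where 2.52% of all genes fell and 1.90% rose. Pou4f3 (-0.17, adjusted p = 0.757 by limma), Lhx3 (-0.25, 0.737) and Atoh1 (0.47, 0.254) did not pass. With the block Barhl1 and Myo6 fell too and Atoh1 rose (adjusted p 0.00919, 0.00916 and 0.0323 by limma), where 4.31% of all genes fell and 4.21% rose. Neuronal markers summed to 1575 to 1710 CPM in mutants, against 924 to 1082 CPM in heterozygotes. They did not all move alike either. Tubb3 (3.03), Nefm (0.81) and Snap25 (0.75) rose, and Nefl (0.51) passed only with the block. The changes of Nefh (-0.70) and Prph (-0.42) were negative and did not pass. In bulk RNA, fewer cells of a type and less RNA per cell cannot be told apart.

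Myo6, which made up most of the cochlear sum, had 2337 ± 211 CPM in mutant cochleae and 3234 ± 298 CPM in heterozygous cochleae (SD, n = 3 each). It changed by -0.47 on the log2 scale (adjusted p = 0.188 by limma, 0.00916 with the block). Relative to Myo6 in the same library, the mean log2 ratio in mutant cochleae minus that in heterozygous ones was -1.32 for Cdh23, -0.98 for Adgrv1 and -0.50 for Pdzd7, with no overlap between genotypes. For Myo7a it was -0.25, also without overlap, though the highest mutant ratio (-4.234) came near the lowest heterozygous one (-4.205). For Pcdh15 it was -0.26, and the genotypes overlapped. Clrn1 and Ush1g stood higher against Myo6, by 0.71 and 1.07 without overlap, and Ush1c and Whrn overlapped. Of all other genes tested in the cochlea, 2.03% had every mutant ratio to Myo6 below every heterozygous one and 49.7% had every one above. The 2 of 9 genes with higher ratios do not exceed that share.

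**Figure D2:**
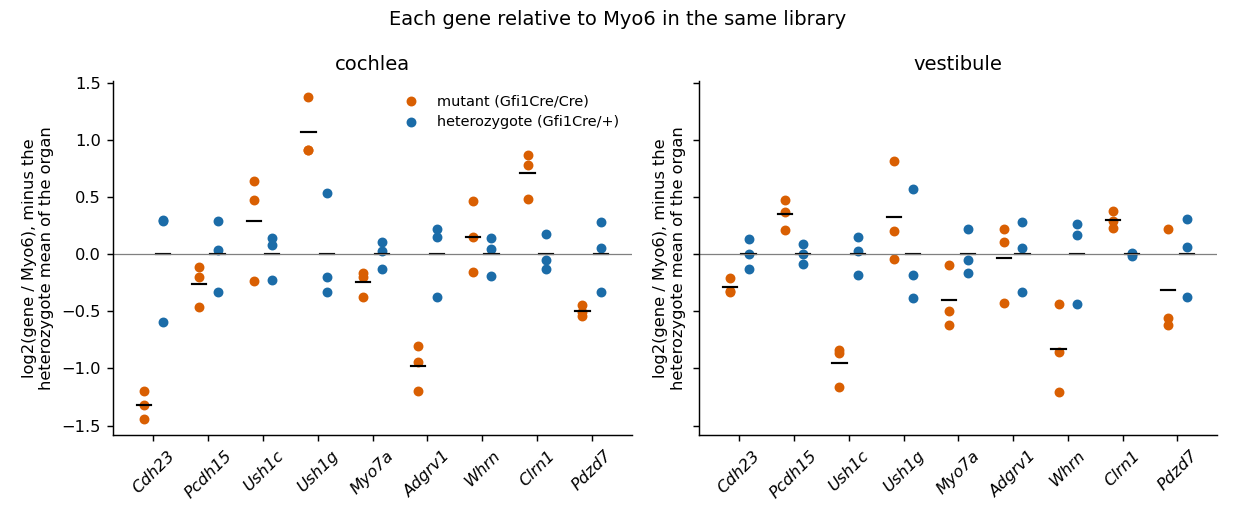
Log2 ratio of each gene to Myo6 in the same library, minus the mean ratio of the heterozygotes of that organ. Mutants are left of heterozygotes, with points for the 3 libraries of a group. In the cochlea Cdh23, Adgrv1, Pdzd7 and Myo7a lie lower in mutants and Clrn1 and Ush1g higher, without overlap.

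In the vestibule Clrn1 was the 1 gene of 9 that passed the test, and it rose. Among all 15595 genes tested there, 2.41% rose and 1.09% fell. No member fell by limma. Ush1c alone had a negative change at an unadjusted p under 0.05, and edgeR and DESeq2 called 0 falls. The median log2 fold change was 0.22 over the 9 genes and -0.06 over all genes tested. Adding the replicate number as a block gave 5 calls, with Clrn1, Pcdh15, Ush1g and Adgrv1 higher and Ush1c lower, where 10.5% of all genes rose and 12.8% fell.

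Clrn1 had 134, 153 and 150.3 CPM in mutant vestibules, against 67.1, 89.3 and 95.9 CPM in heterozygous vestibules. Every mutant library was above every heterozygous one, with means of 146 ± 10.6 CPM in mutants and 84.1 ± 15.1 CPM in heterozygotes (SD, n = 3 each). The log2 fold change was 0.80 (SE 0.16, adjusted p = 0.0311 by limma, 1.66e-05 with the block). The call was lost without heterozygous replicate 2 (adjusted p = 0.107) or mutant replicate 1 (0.0537), 2 (0.144) or 3 (0.135), and with no filter on low genes (0.0668), all by limma. Without replicate 1 of both genotypes it held, with a change of 0.71 and an adjusted p of 0.00816 by limma.

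Pcdh15 had 191, 259.7 and 284 CPM in mutant vestibules, against 101, 145 and 162 CPM in heterozygous vestibules. Here too the groups did not overlap. The log2 fold change of 0.85 (SE 0.21) had an adjusted p of 0.0773 by limma and of 2.04e-06 with the block. Without replicate 1 of both genotypes the change was 0.82 with an adjusted p of 0.00582 by limma.

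Cdh23, its partner in the tip link, had 172, 192 and 197 CPM in mutant vestibules, against 141, 158 and 183 CPM in heterozygous vestibules. The ranges overlapped, and the log2 fold change was 0.22 (95% interval -0.09 to 0.53, adjusted p = 0.487 by limma). Within each library the log2 ratio of Cdh23 to Pcdh15 was -0.15, -0.43 and -0.53 in mutants, against 0.48, 0.13 and 0.18 in heterozygotes. As in the cochlea, the ratio was lower in all 3 mutant libraries, here by a mean of 0.63 on the log2 scale.

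The tip link anchors Ush1c, Ush1g and Myo7a did not pass the test in the vestibule. Ush1c, with 319, 311 and 389 CPM in mutant vestibules against 412, 441 and 539 CPM in heterozygous vestibules, did not overlap between genotypes. Its log2 fold change was -0.45 (SE 0.15), with an adjusted p of 0.185 by limma and of 0.000577 with the block. Ush1g had 11.2, 7.52 and 9.09 CPM in mutants, against 6.12, 4.28 and 5.18 CPM in heterozygotes, again without overlap. Its log2 fold change was 0.73 (SE 0.23), with an adjusted p of 0.154 by limma and of 0.0103 with the block. Of all genes tested in the vestibule, 10.7% had all mutant libraries above all heterozygous ones and 11.6% had all below.

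Myo7a overlapped between genotypes, with 588, 499.7 and 554 CPM in mutant vestibules against 476, 492 and 559 CPM in heterozygous vestibules. The change was 0.10 on the log2 scale (95% interval -0.19 to 0.40, adjusted p = 0.774 by limma). Within libraries the log2 ratio of Ush1c to Myo7a was -0.88, -0.68 and -0.51 in mutants, against -0.21, -0.16 and -0.05 in heterozygotes. Harmonin transcripts were thus scarcer against those of the motor in every mutant vestibular library. In the cochlea the same ratio overlapped between genotypes.

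Among the ankle link genes of the vestibule, Adgrv1 had 111, 196 and 216 CPM in mutants, against 77.0, 159 and 143 CPM in heterozygotes. Both replicate 1 libraries were the lowest of their genotype. The log2 fold change was 0.47 (95% interval -0.27 to 1.22), with an adjusted p of 0.544 by limma and of 0.000919 with the block. Without replicate 1 of both genotypes it was 0.45 with an adjusted p of 0.0527 by limma. Pdzd7 had 75.9, 51.7 and 55.0 CPM in mutants, against 52.5, 44.0 and 62.9 CPM in heterozygotes, and Whrn had 58.5, 41.7 and 54.4 CPM against 57.9, 51.5 and 87.5 CPM. The genotypes overlapped for both, with log2 fold changes of 0.19 (95% interval -0.26 to 0.63) and -0.32 (-0.83 to 0.19) and adjusted p of 0.714 and 0.552 by limma. Within libraries the log2 ratio of Whrn to Pdzd7 was lower in all 3 mutants, at -0.38, -0.31 and -0.02, against 0.14, 0.22 and 0.48 in heterozygotes. In the cochlea the same ratio was higher in all 3 mutants, at 0.52, 0.31 and 0.89, against 0.30, 0.01 and -0.55 in heterozygotes. There the lowest mutant ratio (0.307) all but met the highest heterozygous one (0.301). Of the remaining pairs, Ush1g to Myo7a did not overlap in either organ. Ush1c to Ush1g overlapped in the cochlea only, and Adgrv1 to Whrn and Adgrv1 to Pdzd7 in the vestibule only.

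In the vestibule the 7 hair cell markers summed to 8328 to 8979 CPM in mutants, against 7446 to 8110 CPM in heterozygotes. Atoh1 was the 1 of 7 that rose, by 1.99 on the log2 scale (adjusted p = 0.00635 by limma), and none was at 0. Of all genes tested there, 2.41% rose and 1.09% fell. With the block 6 of the 7 rose, Otof being the exception, where 10.5% of all genes rose and 12.8% fell. Mesenchyme markers summed to 905 to 1181 CPM in mutants, against 1717 to 2107 CPM in heterozygotes, and Schwann and satellite glia markers to 177 to 204 CPM against 294 to 384 CPM. The part of these differences in the members' values was not tested. Myo6 had 2677 ± 312 CPM in mutant vestibules and 1895 ± 340 CPM in heterozygous vestibules (SD, n = 3 each), without overlap, a change of 0.51 (adjusted p = 0.235 by limma, 0.00103 with the block). Relative to Myo6 in the same library, Ush1c (-0.96), Whrn (-0.83) and Cdh23 (-0.29) stood lower in mutant vestibules and Pcdh15 (0.35) and Clrn1 (0.30) higher, without overlap. The other 4 genes overlapped. For Whrn the groups all but met, with the highest mutant ratio at -5.308 and the lowest heterozygous one at -5.306. Of all other genes tested there, 7792 of 15594 had every mutant ratio below every heterozygous one, a larger share than the 3 of 9 here, and 2.31% had every one above. The CPM of Cdh23 itself was not lower in mutant vestibules (0.22).

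**Figure D3:**
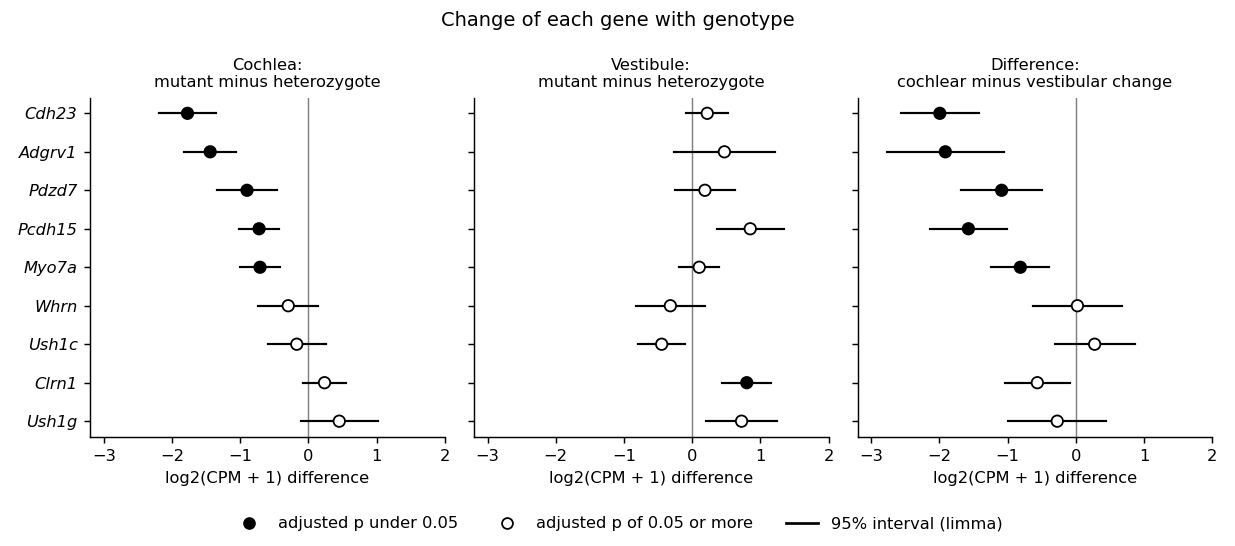
Log2 fold change of each gene in CPM + 1, mutant minus heterozygote, in the cochlea and the vestibule, with bars for the 95% interval of limma. The cochlear changes of Cdh23, Adgrv1, Pdzd7, Pcdh15 and Myo7a are negative, whereas their vestibular changes lie between 0.10 and 0.85.

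The change in mutants differed between organs for 5 of the 9 genes, the same 5 that fell in the cochlea. The difference, cochlear minus vestibular change, was tested as an interaction in a single fit of the 12 libraries. Of the 14674 genes tested in both organs, 2.43% had a difference below 0 that passed and 0.709% one above 0. The difference was -1.99 for Cdh23 (SE 0.27, adjusted p = 0.000627), -1.91 for Adgrv1 (SE 0.40, 0.0149) and -1.58 for Pcdh15 (SE 0.27, 0.00326), by limma. For Pdzd7 it was -1.09 (SE 0.28, adjusted p = 0.0472 by limma) and for Myo7a -0.81 (SE 0.20, 0.0384). Such differences were not particular to the 9 genes. Of the 7 hair cell markers 3 passed below 0, Atoh1 (-1.52), Barhl1 (-1.44) and Rbm24 (-1.07), and all 7 did with the block. The median difference was -1.07 over the 7 markers and -0.81 over the 9 genes. Of 21 other pathway genes 4 passed below 0 (Myo15, Tmc2, Gpsm2 and Clrn2) and 0 above. With the block 8 passed below 0 and 1 above, where 6.43% of all genes passed below 0 and 6.90% above. Clrn2, in both counts, passed the cochlear filter on low genes only through the heterozygous libraries. Its call is given as a description. On leaving out single libraries, the Gpsm2 call was lost for each of the 12, that of Tmc2 for 11, Atoh1 for 8 and Barhl1 for 6. The Rbm24 and Myo15 calls held each time, though that of Rbm24 was lost without replicate 3 of both cochlear genotypes. The part of the marker differences in those of the members was not tested.

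Cdh23 and Pcdh15 passed in each of the 25 alternative settings tried. For Adgrv1 the adjusted p was 0.0511 without cochlear mutant replicate 1 and 0.0618 without replicate 3 of both cochlear genotypes, by limma. For Myo7a the call was lost on leaving out any of 10 of the 12 libraries (adjusted p 0.0541 to 0.107 by limma), that is, each but cochlear mutant replicate 3 and vestibular heterozygous replicate 3. For Pdzd7 it was likewise lost without any of 10 libraries (0.0568 to 0.143), the exceptions being cochlear heterozygous replicate 1 and vestibular heterozygous replicate 3. A pseudocount of 4 also ended the Pdzd7 call (-0.93, adjusted p = 0.0661 by limma). With the block 6 genes passed, Clrn1 being added with a difference of -0.56 (adjusted p = 0.0241 by limma, against 0.267 without the block), where 6.43% of all genes passed below 0 and 6.90% above.

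The differences of Ush1c (0.28, 95% interval -0.31 to 0.86), Ush1g (-0.27, -0.99 to 0.45) and Whrn (0.02, -0.63 to 0.67) did not pass. The median difference over all genes was 0.11 with the deposited scaling and 0.02 after TMM rescaling. The 5 differences that passed lay well below both, at -2.09 for Cdh23, -2.01 for Adgrv1, -1.67 for Pcdh15, -1.18 for Pdzd7 and -0.91 for Myo7a with TMM. Whether the kit or the organ set these differences in change cannot be told apart.

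**Figure D4:**
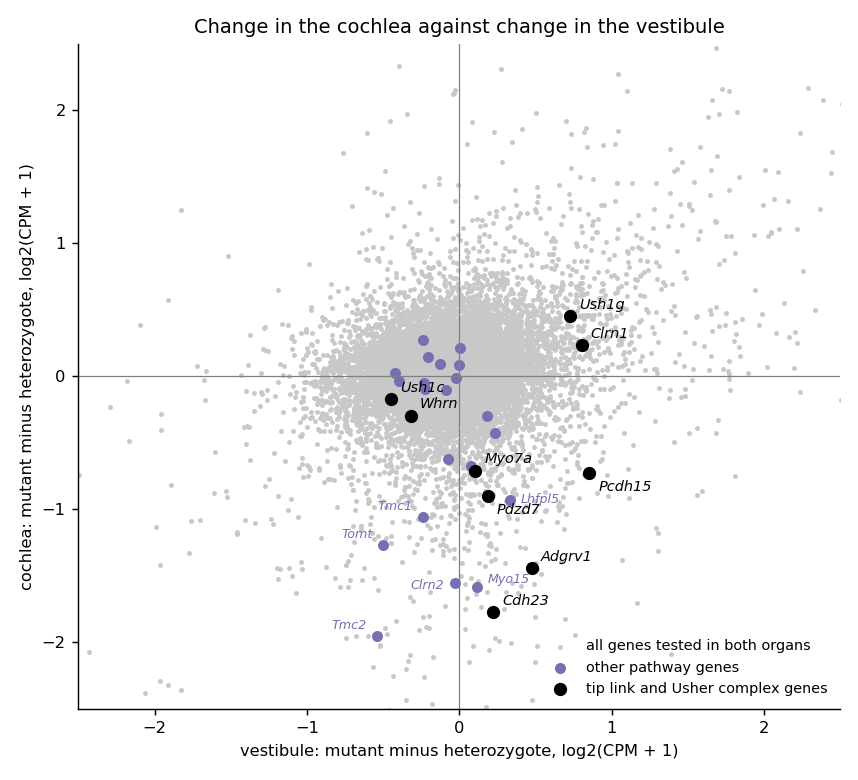
Cochlear against vestibular log2 fold change, mutant minus heterozygote, for all genes tested in both organs (grey), the 9 genes (black) and other genes of the same pathways (purple). Axes end at 2.5 on either side, so some genes lie outside. Cdh23, Adgrv1, Pcdh15, Pdzd7 and Myo7a lie below 0 on the cochlear axis and to the right of 0 on the vestibular one.

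Genes that act beside these 9 were taken from lists of Usher genes, tip link channel subunits, ankle link and whirlin partners, a tip link motor, the brush border link complex and the other clarins. The lists, like the 9 genes, were chosen with earlier results of these data known. Of 22 such genes tested in the cochlea 6 fell and 0 rose by limma, where 2.52% of all genes fell and 1.90% rose. None had a positive change at an unadjusted p under 0.05 or was called as a rise by edgeR or DESeq2. Clrn2, 1 of the 6, passed the filter on low genes only through the heterozygous libraries, so of the other 21 genes 5 fell. The median log2 fold change of these 21 was -0.09, beside 0.05 for all genes. Without heterozygous replicate 1 the calls of Calml4 and Tomt were lost (adjusted p 0.159 and 0.100 by limma), leaving 3 that fell, and Clrn2 was not tested. Both calls were also lost with no filter (0.0665 and 0.0632). With the block 8 of the 21 fell and 0 rose, where 4.31% of all genes fell and 4.21% rose.

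The channel complex at the lower end of the tip link had 3 of 6 members lower in mutant cochleae, where 2.52% of all genes fell. With the block, which added Tmc1 and Cib2, it had 5 of 6, where 4.31% of all genes fell. Tmc2, a subunit of the channel used early in development, averaged 11.8 ± 2.86 CPM in mutants and 50.8 ± 22.3 CPM in heterozygotes (SD, n = 3 each), a log2 fold change of -1.95 (adjusted p = 0.000647 by limma). Lhfpl5, which joins protocadherin 15 to the channel, changed by -0.93 (adjusted p = 0.00141 by limma). Tomt, needed to bring the channel to the bundle, changed by -1.27 (adjusted p = 0.0168 by limma), a call lost without heterozygous replicate 1, mutant replicate 1 or mutant replicate 2 (adjusted p 0.0749 to 0.100). Tmc1, the subunit of mature hair cells, had 7.87, 6.32 and 11.0 CPM in mutants, against 27.1, 11.4 and 19.2 CPM in heterozygotes. The groups did not overlap, and its adjusted p was 0.0599 by limma and 0.00115 with the block.

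Vezt and Adcy6, proteins of the ankle link, did not pass in either organ (log2 fold changes in the cochlea 0.08 and -0.03), although Adcy6 fell in the vestibule with the block. Myo15, the myosin that carries whirlin to stereocilia tips, averaged 16.0 ± 4.96 CPM in mutant cochleae and 48.7 ± 7.29 CPM in heterozygous cochleae (SD, n = 3 each). It fell by 1.58 on the log2 scale (adjusted p = 0.000563 by limma) and its difference between organs was -1.70 (adjusted p = 0.00338 by limma). Eps8, Gnai3, Gpsm2 and Mpp1, the other whirlin partners, did not pass in the cochlea, although Gpsm2 (-0.43, adjusted p = 0.0898 by limma) fell with the block (0.0103). Clrn2, a relative of Clrn1 also needed in hair bundles, had 0.375, 0 and 0.116 CPM in mutant cochleae, against 2.41, 2.92 and 1.92 CPM in heterozygous cochleae. No mutant library reached 1 CPM, so the filter kept it only for its heterozygous level, and its fall (adjusted p = 0.00285 by limma, 0.00288 with no filter) is given as a description.

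In the vestibule 1 of 22 such genes passed, a rise, where 2.41% of all genes rose and 1.09% fell. Myo7b, a brush border relative of Myo7a, had 8.44, 7.77 and 4.38 CPM in mutants, against 1.16, 2.10 and 2.59 CPM in heterozygotes, a log2 fold change of 1.40 (adjusted p = 0.0498 by limma). That call was lost without any single vestibular library (adjusted p 0.0554 to 0.190). With the block 2 rose (Myo7b and Lhfpl5) and 4 fell (Tmc2, Tomt, Mpp1 and Adcy6), beside 10.5% and 12.8% of all genes.

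Levels of the 9 genes can be set in order only per kilobase of exon. In mutant cochleae the order was Clrn1 (26.4 CPM per kilobase), Myo7a (13.8), Ush1c (13.7), Pcdh15 (8.36), Adgrv1 (4.67), Cdh23 (3.61), Pdzd7 (2.38), Whrn (1.99) and Ush1g (1.196). In heterozygous cochleae it was Clrn1 (22.5), Myo7a (22.4), Ush1c (15.0), Pcdh15 (13.9), Cdh23 (12.8), Adgrv1 (12.7), Pdzd7 (4.73), Whrn (2.44) and Ush1g (0.789). From Ush1c to Adgrv1 the heterozygous libraries of neighbours overlapped, as did those of Clrn1 and Myo7a, so their order is not resolved. In mutants Myo7a overlapped Ush1c, Adgrv1 overlapped Cdh23, and Pdzd7 overlapped Whrn.

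In mutant vestibules the order was Ush1c (88.3 CPM per kilobase), Myo7a (63.9), Clrn1 (37.8), Pdzd7 (15.0), Cdh23 (11.0), Pcdh15 (10.3), Whrn (7.03), Adgrv1 (7.02) and Ush1g (2.80). In heterozygous vestibules it was Ush1c (121), Myo7a (59.4), Clrn1 (21.8), Pdzd7 (13.1), Cdh23 (9.49), Whrn (8.95), Pcdh15 (5.72), Adgrv1 (5.08) and Ush1g (1.57). The first 3 and the last were the same in both genotypes, with no overlap between neighbours. Cdh23 and Pcdh15, and Whrn and Adgrv1, overlapped in mutants, as did Cdh23 and Whrn, and Pcdh15 and Adgrv1, in heterozygotes. Lengths here join all annotated exons. Divided by the longest transcript instead, Pcdh15 moved to rank 2 in mutant cochleae and rank 1 in heterozygous ones.

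**Figure D5:**
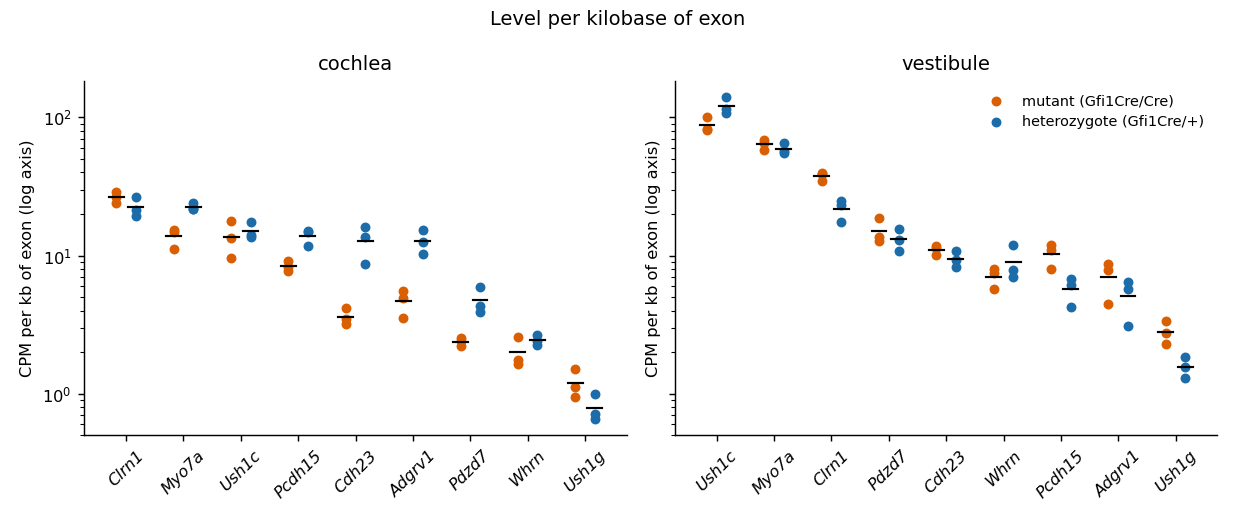
CPM per kilobase of annotated exon for the 9 genes on a log axis, by organ, with mutants beside heterozygotes and points for libraries. Ush1g is the lowest of the 9 in all 4 groups, and Ush1c and Myo7a are the highest in the vestibule.

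The 4 longest transcripts among the 9 genes, those of Adgrv1 (19.3 kilobases), Cdh23 (11.1), Pcdh15 (9.10) and Myo7a (7.51), all belonged to genes that fell in the cochlea. Pdzd7, at 3.27 kilobases, also fell, and the other 4 ran from 3.07 to 4.05 kilobases. Over all cochlear genes tested, 4.26% of those above 6 kilobases fell and 2.07% of those up to 3 kilobases. Rises were likewise commoner among long genes, at 2.96% and 1.08%, and the medians were 0.05 and 0.03 on the log2 scale. In the vestibule the same 4 long genes had changes of 0.10 to 0.85. The part of transcript length in the members' values was not tested.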

How the data were processed

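Each library was deposited by the authors as a table of CPM per gene (per the file headers and values). The submitters' processing notes name TopHat and GRCm38. The counting tool and its strand setting are not given in the sources used here, so reads from overlapping genes on opposite strands cannot be told apart. Every deposited CPM was a whole multiple of 1 read (100% of values, to within 1e-06). That step was 0.107 to 0.133 CPM for cochlear libraries and 0.0340 to 0.0528 CPM for vestibular ones. The labels call the triplicates biological.

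The tests took 17985 cochlear and 15595 vestibular genes that reached 1 CPM in 3 or more of an organ's 6 libraries, and all 9 members passed in both. Mutants were compared with heterozygotes with limma 3.58.1 (R 4.3.3, prior variance with a trend) on log2(CPM + 1), which understates changes of low genes. P-values were Benjamini-Hochberg adjusted over all genes tested, and calls were made under 0.05. Organs were set against each other by the interaction of genotype and organ, over 12 libraries and 14674 genes. The edgeR 4.0.16 quasi-likelihood test on the recovered reads called 813 cochlear genes, 524 vestibular genes and 516 differences, against 794, 546 and 461 by limma.

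Same-numbered mutant and heterozygous libraries deviated together, with cochlear correlations of 0.226 to 0.420 and vestibular ones of 0.508 to 0.766. The numbers were therefore read as pairing the samples, and values with the replicate number as a block stand beside results on the members, pathway genes and hair cell markers that they change. This hint comes from the data, as the labels give only the numbers.

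The alternatives tried were a pseudocount of 0.25 or 4, a filter of 5 CPM or none, median-of-ratios, TMM and quantile scaling, a robust prior, the block, leaving out libraries, edgeR, DESeq2 1.42.0 and another gene length. Coordinates and exon lengths come from GENCODE M21. Genes named are the 9 members, all genes of the pathway lists, Gfi1, the cell type markers and, for each member, the 2 genes with the most similar pattern. A gene that this rule names is not reported here, and counts over the pathway lists leave it out. The members and lists were chosen with earlier results of these data known. The fitting was checked on simulated data. Figures were drawn with matplotlib 3.10.9.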

Additional observations from a re-analysis of the deposited data

Results flagged for a closer look

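For 5 of the 9 genes the change in mutants differed between the organs by the interaction test (limma, Benjamini-Hochberg adjusted p under 0.05). The difference is given as cochlear minus vestibular log2 change. Cdh23 had a difference of -1.99, made up of -1.77 in the cochlea and 0.22 in the vestibule. Adgrv1 had a difference of -1.91, from -1.44 and 0.47. Pcdh15 had a difference of -1.58, from -0.72 and 0.85, and was the 1 of the 5 whose libraries did not overlap in either organ. Its vestibular change did not pass without the block (adjusted p = 0.0773 by limma). Of all genes tested, 7.77% had every mutant library lower in the cochlea and 10.7% had every one higher in the vestibule. The differences of Pdzd7 (-1.09) and Myo7a (-0.81) came with vestibular changes of 0.19 and 0.10. Groups of 3 libraries were too small for a search for single outlying libraries.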

How the results depend on the processing

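In the cochlea 5 members were called, 4 without replicate 3 of both genotypes and 4 to 5 on leaving out each library in turn. In the vestibule the single call became 0 with no filter, 5 with the replicate block, 2 without replicate 1 of both genotypes and 3 with DESeq2, with 0 to 1 on leaving out each library. Of the differences between organs 5 were called, against 4 with a pseudocount of 4, 3 with no filter, 2 without replicate 3 of both cochlear genotypes, 3 without replicate 1 of both vestibular genotypes and 2 to 5 on leaving out each library. The cause of these shifts was not tested. The block raised the calls over all genes to 1532 in the cochlea, 3634 in the vestibule and 1955 differences, against 794, 546 and 461 without it, and changed no call of a member beyond those given. The cochlear change of Ush1c, -0.17, became 0.055 without mutant replicate 2 and ran from -0.38 to 0.055 on leaving out each library. The Whrn difference between organs, 0.02, became -0.059 with median-of-ratios, -0.070 with TMM, -0.0085 with quantile scaling, -0.039 with edgeR, -0.051 with DESeq2 and -0.22 without replicate 3 of both cochlear genotypes, and ran from -0.20 to 0.18 on leaving out each library. Ush1g had the fewest reads, 17 to 39 per cochlear library, and so the largest counting error.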

Other observations

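The brush border of gut and kidney has a link complex built like that of the hair bundle, with its own cadherins. Its cadherin genes were at or near 0 in these libraries. Cdhr2 had at most 0.811 CPM in mutant cochleae and 0.266 CPM in heterozygous cochleae, and Cdhr5 was at 0 in the mutant vestibules and at most 0.340 CPM in the heterozygous ones. Calml4, a light chain of the brush border myosin, had 79.1, 71.1 and 63.9 CPM in mutant cochleae, against 151, 94.0 and 105 CPM in heterozygous cochleae, without overlap. It fell there by 0.68 on the log2 scale (adjusted p = 0.0360 by limma), a call lost without heterozygous replicate 1 or any single mutant library (adjusted p 0.0649 to 0.159 by limma). Anks4b, a brush border relative of Ush1g, averaged 5.68 ± 0.790 CPM in mutant cochleae and 5.78 ± 1.76 CPM in heterozygous cochleae (SD, n = 3 each).

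The genes with the most similar pattern were found by the root mean square difference of log2(CPM + 1), centred within each organ, over 12 libraries and 10926 genes, as a description. For Adgrv1 the closest was Hydin (0.13). For Cdh23 they were Ttc21a (0.19) and Wdr63 (0.23), and for Pcdh15 they were Unc79 (0.17) and Tnc (0.18). Myo7a had the closest match, Osbpl3 (0.05), followed by Atp2b2 (0.10), which encodes the calcium pump of the hair bundle. For Ush1c they were Pdgfa (0.11) and Sec11c (0.12), for Ush1g Sgsm2 and Zfp423 (0.13 each), for Whrn Grtp1 and Slc9a3r2 (0.15 each), for Clrn1 Glce and Alg10b (0.10 each) and for Pdzd7 Irx2 and Bend3 (0.14 each). Among the members the closest pair was Myo7a and Pdzd7 (0.17), followed by Ush1c and Whrn (0.21), and the farthest was Cdh23 and Ush1g (0.86). Cdh23 lay closer to Adgrv1 (0.31) than to Pcdh15 (0.47), its partner in the tip link.

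Markers of other cells were given by list. Granulocyte markers, which depend on Gfi1 in blood, summed to 3.74 to 8.75 CPM in mutant cochleae, against 28.6 to 52.8 CPM in heterozygous cochleae, and to 8.15 to 10.9 CPM in mutant vestibules, against 75.3 to 95.04 CPM in heterozygous vestibules. Macrophage markers in the vestibule summed to 3897 to 4935 CPM in mutant vestibules, against 4042 to 6240 CPM in heterozygous vestibules. Supporting cell markers overlapped between genotypes in both organs, at 724 to 979 CPM in mutant cochleae, against 735 to 916 CPM in heterozygous cochleae, and 895 to 1209 CPM in mutant vestibules, against 764 to 1498 CPM in heterozygous vestibules. Neuronal markers in the vestibule summed to 2242 to 2337 CPM in mutants, against 1298 to 1504 CPM in heterozygotes. In the cochlea mesenchyme markers (862 to 945 CPM in mutants, 765 to 998 CPM in heterozygotes) and glia markers (135 to 156 CPM in mutants, 123 to 171 CPM in heterozygotes) overlapped. None of these markers was at 0 in every library of a group.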
